A study of Mus musculus with 16 samples.

Results

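The genes Cxcl1, Cxcl2, Cxcl3, Cxcl5, Cxcl15, Ppbp, Pf4 and Cxcr2 encode 7 CXC chemokines and 1 of their receptors. They were taken by gene name from the arrays, and each was read by 1 probe, giving 8 of 25670 genes tested and 8 of 55681 probes. Lungs of female mice were homogenised whole, so each array measured the RNA of all lung cells together.

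The groups were 4 lungs of 12-month ARF-DTR mice given DT, 4 lungs of 12-month ARF-DTR mice given PBS, 4 lungs of 2-month ARF-DTR mice killed without injection, 2 lungs of 12-month wild type mice given DT and 2 lungs of 12-month wild type mice given PBS. DT is diphtheria toxin, given intraperitoneally at 50 microgram per kg every 2 weeks for 1 month, and PBS is the saline vehicle. ARF-DTR mice carry a receptor for the toxin under the promoter of Arf, a gene that senescent cells switch on, whereas mouse cells are otherwise poorly sensitive to the toxin. The model therefore reaches only cells in which that promoter is active, and cells that do not use it are spared. The description field speaks of DT for wild type PBS replicate 1 but leaves it out for both DT-treated wild type lungs, so the groups follow the sample titles. Whether the arrays of a group came from separate mice is not stated, so p-values measure only how these samples spread, and that spread may be technical.

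CXC chemokines with an ELR motif, among them Cxcl1, Cxcl2, Cxcl3 and Cxcl5, call neutrophils out of the blood by binding CXCR2, a receptor coupled to G proteins on the neutrophil surface. Macrophages, epithelium and stromal cells make Cxcl1, Cxcl2 and Cxcl3 within hours of an inflammatory signal through NF-kB, while Cxcl5 in the mouse lung is made by alveolar type 2 cells and platelets. Cxcl15, called lungkine, is a product of lung epithelium. Ppbp and Pf4 are stored in platelet granules, and Pf4 lacks the ELR motif and is a weak neutrophil attractant.

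Levels are log2 signals relative to the 75th percentile of the array. A level belongs to its own probe, so levels are compared between groups and not between genes. The 75th percentile lay between 613 and 1088 intensity units. The arrays filled 2 slides of 8, with both the PBS-treated and the 2-month ARF-DTR lungs on slide 1 and all other groups on slide 2. The comparison of age and the comparisons within slide 2 are thus free of a slide difference, whereas in DT against PBS within ARF-DTR lungs slide and treatment cannot be told apart. The ARF-DTR response to DT minus the wild type response includes that comparison and carries the same limit. DT-treated against 2-month ARF-DTR lungs and PBS-treated ARF-DTR against PBS-treated wild type lungs also span the slides. Age in turn went with the row of the slide and with injection. Lung identity was plain on every array, since Sftpc, the surfactant protein of type 2 cells, lay between 8.55 and 9.35 and Scgb1a1, the club cell secretoglobin, between 8.49 and 9.16.

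All 8 probes passed the filter for dim probes, which required 4 or more of the 16 arrays to be well above background. Cxcl2 was well above background on 9 arrays and Cxcl3 on 4, and the other members on all 16. The plot of levels by array gives every value.

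**Figure D1:**
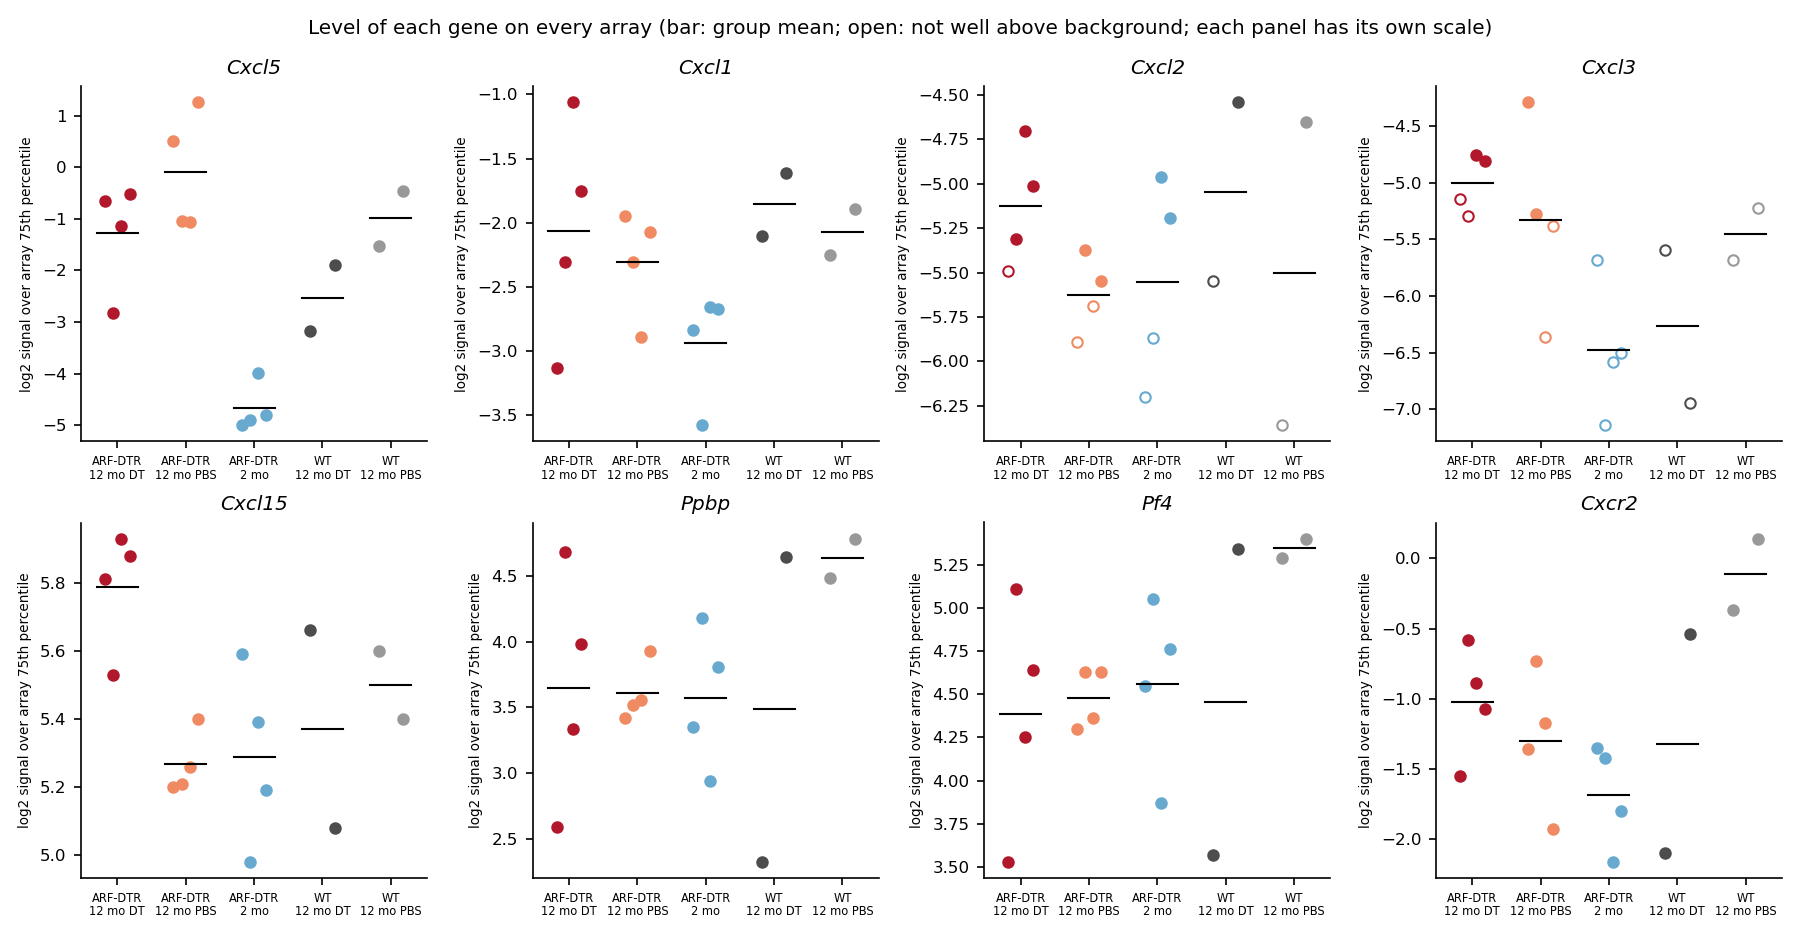
Log2 signal over the array 75th percentile (vertical axis) of the 8 genes in the 5 groups (horizontal axis), with 1 point per array and a bar at the group mean; open points are arrays on which the probe was not well above background. Cxcl5 lies between -5.00 and -3.99 in 2-month lungs, under every 12-month lung, and Cxcl3 is filled on only 4 arrays.

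Cxcl5 was the member that separated the ages. It was at 0.50, -1.05, -1.07 and 1.26 in PBS-treated 12-month ARF-DTR lungs, against -5.00, -4.89, -3.99 and -4.80 in 2-month ARF-DTR lungs. The groups did not overlap. The difference was 4.58 ± 0.60 on the log2 scale (standard error, 95% interval 3.27 to 5.88), a 23.9-fold higher signal at 12 months (adjusted p = 0.000846, limma with Benjamini-Hochberg adjustment over all genes tested). The SD was 1.16 (n = 4) in PBS-treated 12-month lungs and 0.46 (n = 4) in 2-month lungs, a difference in spread that was not tested. A normexp background correction gave a smaller difference of 3.18 (adjusted p = 0.00118).

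The 12-month lungs outside that comparison also had more Cxcl5 than any 2-month lung. The level was -0.66, -2.82, -1.14 and -0.51 in DT-treated ARF-DTR lungs. It was -3.18 and -1.89 in DT-treated wild type lungs, against -1.52 and -0.46 in PBS-treated wild type lungs. By mean level the order was PBS-treated ARF-DTR, PBS-treated wild type, DT-treated ARF-DTR, DT-treated wild type and 2-month ARF-DTR lungs. Neighbours in this order had overlapping ranges, except that the last stood apart from all others. DT-treated 12-month ARF-DTR lungs exceeded 2-month lungs 10.5-fold (3.39 ± 0.60, limma adjusted p = 0.0012), with these groups on different slides, and the difference was 2.17 after normexp correction.

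Treatment with DT gave lower Cxcl5 means in both genotypes, without passing the test in either. In ARF-DTR lungs the difference between DT and PBS was -1.19 ± 0.60 (95% interval -2.49 to 0.11, limma adjusted p = 0.155) and the groups overlapped. In wild type lungs, which lack the toxin receptor, it was -1.55 ± 0.85 (95% interval -3.39 to 0.30, limma adjusted p = 0.486), and both DT arrays were below both PBS arrays. The response in ARF-DTR lungs, which spans the slides, minus that in wild type lungs was 0.35 ± 1.05 (limma adjusted p = 0.876), with an interval from -1.90 to 2.61. With DT in both genotypes, Cxcl5 in ARF-DTR lungs differed from wild type lungs by less than the test could call (1.25 ± 0.74, limma adjusted p = 0.455).

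In whole lung, more cells of a type and more RNA per cell cannot be told apart. Of the 2 named sources of Cxcl5, neither had markers that passed the test with age. Among 12 markers of secretory airway and type 2 epithelium 0 were called in either direction, with 0 at an unadjusted p under 0.05, and Sftpc differed by -0.01 ± 0.09. Their summed signal, as a multiple of the array 75th percentile, ran from 1870 to 2250 in PBS-treated 12-month ARF-DTR lungs, against 1780 to 2690 in 2-month lungs. Such a sum, here and for the lists below, is weighted towards the brightest probes of the list. Among 14 platelet and megakaryocyte markers 0 were called, with 0 at an unadjusted p under 0.05, and the sum ran from 25.5 to 33.6 in PBS-treated 12-month ARF-DTR lungs, against 19.0 to 40.0 in 2-month lungs.

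Some markers of other cells did move with age, and their part in the Cxcl5 result was not tested. Of 6 measured mesothelial markers 4 were higher at 12 months (median 1.06, against -0.03 over all genes), namely Wt1 at 1.81 ± 0.36, Bnc1 at 1.50 ± 0.24, Upk3b at 1.07 ± 0.21 and Msln at 1.04 ± 0.27. Their summed signal was 20.0 to 23.3 in PBS-treated 12-month ARF-DTR lungs, against 8.31 to 14.1 in 2-month lungs. Of 6 measured adipocyte markers 0 passed the test. Of 6 B cell markers 1 was called higher, and the median difference was 0.63. Their summed signal overlapped, at 21.9 to 38.2 in PBS-treated 12-month ARF-DTR lungs, against 18.5 to 23.3 in 2-month lungs. Of 6 red cell markers 0 passed.

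Genes of the circadian clock, chosen here after their values were seen, also differed between PBS-treated 12-month and 2-month ARF-DTR lungs. In mice the clock of airway epithelium is known to control Cxcl5. Dbp, a clock output gene, averaged 2.04 ± 0.36 in PBS-treated 12-month ARF-DTR lungs, against 4.90 ± 0.38 in 2-month lungs (SD, n = 4 each). In DT-treated 12-month ARF-DTR lungs Dbp averaged 2.91 ± 0.30 (SD, n = 4), Arntl 0.74 ± 0.11 and Nr1d1 -0.08 ± 0.26. In the wild type lungs Dbp averaged 5.29 ± 0.17 with DT and 4.77 ± 0.14 with PBS (SD, n = 2 each). Arntl, a core clock activator, averaged 1.14 ± 0.05 in PBS-treated 12-month ARF-DTR lungs, against -0.63 ± 0.41 in 2-month lungs, and in wild type lungs -1.36 ± 0.11 with DT and -0.19 ± 0.14 with PBS. Nr1d1, a clock repressor, averaged -0.42 ± 0.27 in PBS-treated 12-month ARF-DTR lungs, against 1.28 ± 0.24 in 2-month lungs, and in wild type lungs 0.79 ± 0.26 with DT and 1.20 ± 0.20 with PBS. For each gene the 12-month wild type means thus lay nearer to the 2-month mean than to that of PBS-treated 12-month ARF-DTR lungs. Wild type and DT-treated ARF-DTR lungs were on a different slide from 2-month lungs. The part of the clock genes in the Cxcl5 result was not tested.

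The genes whose levels ran most like Cxcl5 over the 16 arrays were Speer2 (Pearson r = 0.93, Spearman rho = 0.85), Rgs13, a GTPase-activating regulator of G protein signalling (r = 0.92, rho = 0.87), and Lingo4 (r = 0.89, rho = 0.72). These are descriptions without a test over arrays that include both ages, and the 3 genes themselves differed between PBS-treated 12-month and 2-month lungs by 2.54, 3.82 and 1.44.

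Seen against the whole array, 1 of the 8 members was called higher with age, where 2.73% of all genes were called higher and 6.14% in either direction. Cxcl5 was also the only member without overlap between the ages, which 13% of all genes showed. The median difference of the 8 members was 0.21. The 7 chemokine genes lie together on chromosome 5, with Ppbp 8.5 kb, Pf4 11.8 kb and Cxcl3 26.2 kb from Cxcl5 by the mm9 positions of their probes. The probe of Cxcl5 is at chr5:91190490-91190549. Ppbp and Pf4, the nearest of them, differed with age by 0.03 ± 0.49 and -0.08 ± 0.38.

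**Figure D2:**
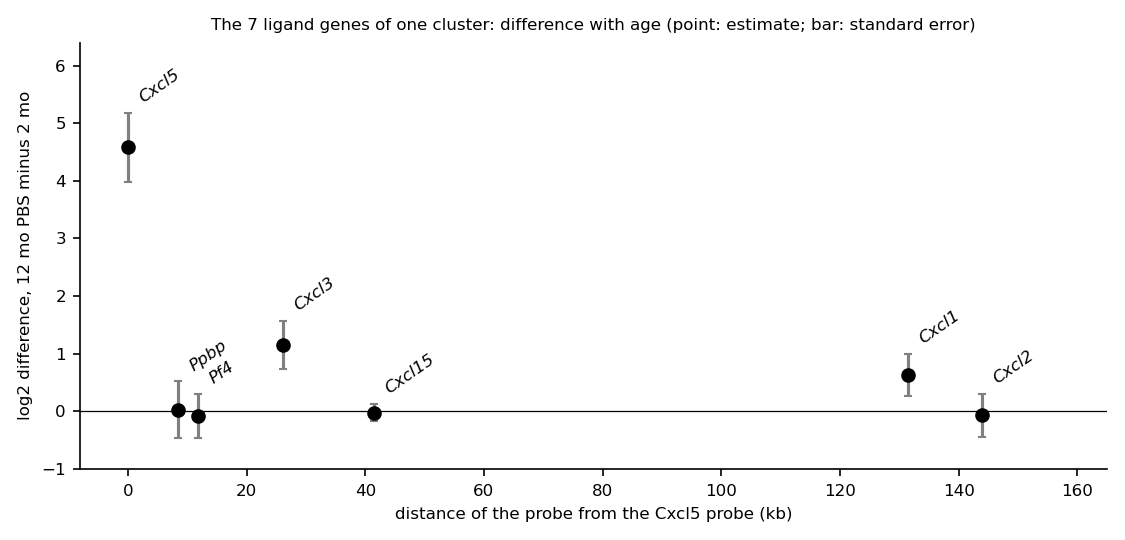
Log2 difference of PBS-treated 12-month minus 2-month ARF-DTR lungs (vertical axis, 4 arrays each, bars are standard errors) for the 7 chemokine genes, by distance of their probe from the Cxcl5 probe in kb (horizontal axis). Cxcl5 is at 4.58, while Ppbp, Pf4, Cxcl15 and Cxcl2 lie within 0.1 of 0.

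Cxcl1, Cxcl2 and Cxcl3 are the rapidly inducible ligands. Their promoters are shown because they share a run of the kind that NF-kB, the factor through which these genes are known to respond, can bind. The sequences are the 100 bases before the RefSeq transcript start on GRCm38.p6, all on the plus strand. Capitals mark GGGAATTTCCC, the longest run common to all 3, and the motif TATAAA.
Cxcl1, chr5:90891145-90891244: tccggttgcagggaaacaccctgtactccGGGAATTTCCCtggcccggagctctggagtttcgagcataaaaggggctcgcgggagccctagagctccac
Cxcl2, chr5:90903799-90903898: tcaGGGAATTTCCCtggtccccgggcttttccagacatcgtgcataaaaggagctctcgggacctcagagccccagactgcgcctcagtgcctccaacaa
Cxcl3, chr5:90786001-90786100: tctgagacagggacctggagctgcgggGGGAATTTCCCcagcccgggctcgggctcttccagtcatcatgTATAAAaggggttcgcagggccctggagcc

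Searched on both strands, the shared run began 71 bases before the start in Cxcl1, 97 in Cxcl2 and 73 in Cxcl3. Of 32851 promoter windows of 300 bases in the same table, 14 held it (0.0426%). The promoters of Cxcl15, Ppbp, Pf4 and Cxcr2 did not. The run was read from these 3 promoters, so its presence in them is given by the choice, and a match of letters does not show that a factor was bound.

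The 3 genes sharing this site gave no call with age. Cxcl1 lay between -2.89 and -1.95 in PBS-treated 12-month ARF-DTR lungs, against -3.58 to -2.66 in 2-month lungs, and the ranges overlapped. The difference was 0.63 ± 0.37 (95% interval -0.17 to 1.44, limma adjusted p = 0.38). Cxcl1 was most variable after DT, running from -3.13 to -1.06 in DT-treated 12-month ARF-DTR lungs. That group differed from 2-month lungs, on the other slide, by 0.88 ± 0.37, which missed the threshold (limma adjusted p = 0.0931). The difference passed it after normexp correction (0.80, limma adjusted p = 0.0242) or without DT-treated replicate 1 (1.23, limma adjusted p = 0.0145). In wild type lungs Cxcl1 was at -2.10 and -1.61 with DT, against -2.25 and -1.89 with PBS.

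Cxcl2 stayed near the background in all groups. It was well above background in 3 of 4 DT-treated 12-month, 2 of 4 PBS-treated 12-month and 2 of 4 2-month ARF-DTR lungs, and in 1 of 2 wild type lungs with either treatment. Its level ran from -5.89 to -5.37 in PBS-treated 12-month ARF-DTR lungs, against -6.20 to -4.96 in 2-month lungs (-0.07 ± 0.37, limma adjusted p = 0.947). After normexp background correction Cxcl2 passed the test in 3 comparisons, all across slides. It was 0.53 higher in DT-treated than in PBS-treated 12-month ARF-DTR lungs (limma adjusted p = 0.00191), against 0.49 ± 0.37 without that correction (limma adjusted p = 0.331). It was 0.48 higher in DT-treated 12-month than in 2-month lungs (limma adjusted p = 0.00283), against 0.43 ± 0.37 (limma adjusted p = 0.409). Between PBS-treated ARF-DTR and PBS-treated wild type lungs it was -0.51 (limma adjusted p = 0.00911), against -0.12 ± 0.45 (limma adjusted p = 0.873).

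Cxcl3 was well above background only in 12-month ARF-DTR lungs, on 2 of 4 arrays with DT and 2 of 4 with PBS. It was at -5.14, -5.29, -4.76 and -4.81 in DT-treated 12-month lungs, at -4.29, -5.28, -6.36 and -5.38 in PBS-treated 12-month lungs and at -5.68, -7.14, -6.58 and -6.50 in 2-month lungs. Because no 2-month array rose well above background, only an approximate bound can be given there. It takes, on each 2-month array, the higher of the probe's own signal and the lowest signal of any probe well above background. The 12-month levels entered as measured, also on arrays not well above background. A probe could lie above that lowest signal without passing, as in 2-month replicate 1 (-5.68 against -5.81). On that basis Cxcl3 was 1.70-fold higher in DT-treated 12-month than in 2-month lungs, across slides. The bound itself was not tested, and the levels as measured passed the test (limma adjusted p = 0.0167). The call was lost without 2-month replicate 2 (limma adjusted p = 0.0547). Cxcl3 passed the filter for dim probes only through the 4 arrays of 12-month ARF-DTR lungs on which it was high, so its difference from 2-month lungs is a description. In PBS-treated 12-month lungs Cxcl3 was 1.36-fold higher than in 2-month lungs by the same approximate bound. There the levels as measured did not pass the test (limma adjusted p = 0.13). In wild type lungs Cxcl3 was well above background on no array, at -5.59 and -6.94 with DT and at -5.68 and -5.22 with PBS.

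Cxcl15 did not follow age. It was at 5.20, 5.21, 5.26 and 5.40 in PBS-treated 12-month ARF-DTR lungs, against 5.59, 4.98, 5.39 and 5.19 in 2-month lungs. The difference was -0.02 ± 0.15 with a 95% interval from -0.33 to 0.30 (limma adjusted p = 0.963). Its promoter is shown because it is the member that was called with DT, and it holds the TATAAA motif (in capitals) but not the shared run.
Cxcl15, chr5:90794434-90794533: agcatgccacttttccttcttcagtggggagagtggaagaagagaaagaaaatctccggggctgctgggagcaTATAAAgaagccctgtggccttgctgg
TATAAA, searched on both strands, was in 13.6% of all windows.

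After DT Cxcl15 was at 5.81, 5.53, 5.93 and 5.88 in ARF-DTR lungs, above all 4 PBS-treated ARF-DTR lungs. The difference was 0.52 ± 0.15, or 1.44-fold (limma adjusted p = 0.0175). It was the only member called in this comparison, in which 29.2% of all genes were called (15.8% higher), and slide and treatment cannot be told apart. The call was lost with quantile normalization (0.32, adjusted p = 0.0983) and without DT-treated replicate 3 (0.47, adjusted p = 0.0524). It was the only member without overlap here, which 30.5% of all genes showed.

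The epithelial markers moved in the same comparison. Of 12 secretory airway and type 2 markers 7 were higher in DT-treated ARF-DTR lungs and 1 lower, with a median of 0.31 against 0.00 over all genes. Sftpd rose by 0.87 ± 0.10, Sftpa1 by 0.65 ± 0.10 and Lamp3, a lamellar body protein, by 0.62 ± 0.15, while the secretoglobin Scgb3a2 fell by 0.65 ± 0.20. Their summed signal was 2430 to 3020 in DT-treated ARF-DTR lungs, against 1870 to 2250 in PBS-treated ARF-DTR lungs. On slide 2 it was also high, at 2680 to 2870 in DT-treated wild type and 2500 to 2860 in PBS-treated wild type lungs. Their part in the Cxcl15 result was not tested.

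Within slide 2 Cxcl15 differences were smaller. DT-treated ARF-DTR lungs exceeded DT-treated wild type lungs (5.66 and 5.08) by 0.42 ± 0.18 and PBS-treated wild type lungs (5.60 and 5.40) by 0.29 ± 0.18, and neither passed the test (limma adjusted p = 0.275 and 0.371). Of the 12 epithelial markers 0 were called in either comparison, with 0 and 5 at an unadjusted p under 0.05. In wild type lungs DT and PBS differed by -0.13 ± 0.21 (limma adjusted p = 0.867). The ARF-DTR response, which spans the slides, minus the wild type response was 0.65 ± 0.25 (95% interval 0.11 to 1.19, limma adjusted p = 0.164). Against 2-month lungs, on the other slide, DT-treated 12-month ARF-DTR lungs had 0.50 ± 0.15 more Cxcl15 (limma adjusted p = 0.019). That call was lost with quantile normalization (0.30, adjusted p = 0.109) and without any of 4 single arrays (2-month replicates 2 and 4, DT-treated replicates 3 and 4), with 0.40 and an adjusted p = 0.0616 without 2-month replicate 2. In that comparison 3 of the 8 members were called, all higher (Cxcl3, Cxcl5 and Cxcl15), where 30.7% of all genes were called and 14.7% higher. Cxcl3 could be tested only through the 12-month arrays on which it was high, so the count of 3 is a description. Cxcl5 and Cxcl3 did not overlap there, as did 29.3% of all genes.

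**Figure D3:**
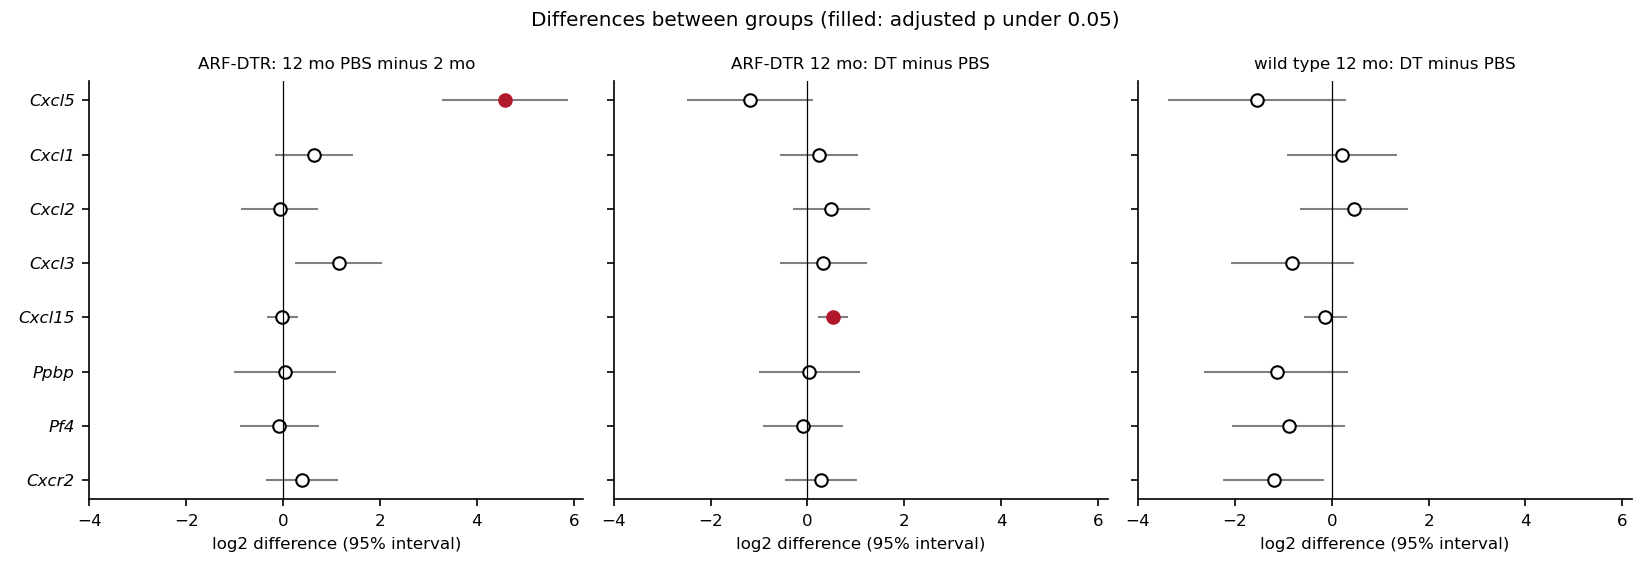
Log2 differences (horizontal axis) with 95% intervals for the 8 genes (rows) in 3 comparisons, namely PBS-treated 12-month minus 2-month ARF-DTR lungs, DT minus PBS in 12-month ARF-DTR lungs and DT minus PBS in 12-month wild type lungs; filled points have an adjusted p under 0.05. Cxcl5 at 4.58 and Cxcl15 at 0.52 are the filled points, and the intervals are widest in wild type lungs, with 2 arrays per group.

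Ppbp and Pf4, the platelet chemokines, moved as a pair from array to array, and neither was called in any comparison when all 16 arrays were fitted. Ppbp ran from 3.42 to 3.93 in PBS-treated 12-month ARF-DTR lungs, against 2.94 to 4.18 in 2-month lungs. Pf4 ran from 4.30 to 4.63 in PBS-treated 12-month ARF-DTR lungs, against 3.87 to 5.05 in 2-month lungs. Among ARF-DTR lungs the DT-treated ones spread most, with Ppbp from 2.59 to 4.68 and Pf4 from 3.53 to 5.11. In wild type lungs replicate 1 and replicate 2 with DT were at 2.33 and 4.64 for Ppbp, against 4.48 and 4.78 with PBS. For Pf4 they were at 3.57 and 5.34 with DT, against 5.29 and 5.40 with PBS. PBS-treated ARF-DTR lungs differed from PBS-treated wild type lungs, on the other slide, by -1.02 ± 0.60 for Ppbp and -0.87 ± 0.47 for Pf4 (limma adjusted p = 0.233 and 0.197). With those 2 groups fitted alone, both passed the test (limma adjusted p = 0.0215 and 0.018).

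The lowest Ppbp and Pf4 among wild type lungs thus came from 1 DT array. The differences between DT and PBS there were -1.14 ± 0.69 for Ppbp and -0.89 ± 0.54 for Pf4 (limma adjusted p = 0.532 and 0.534), and without DT replicate 1 they were 0.01 and 0.00. Platelet markers as a list had a median of -0.96 in that comparison, with 0 of 14 called and 0 at an unadjusted p under 0.05. Their summed signal was 14.8 and 65.8 in the DT-treated wild type lungs, against 50.7 and 57.6 in the PBS-treated wild type lungs.

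The promoters of the pair are shown because their levels moved together (GRCm38.p6, plus strand, 100 bases before the start, TATAAA in capitals).
Ppbp, chr5:90768418-90768517: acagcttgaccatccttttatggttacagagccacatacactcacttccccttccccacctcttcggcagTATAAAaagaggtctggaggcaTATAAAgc
Pf4, chr5:90772335-90772434: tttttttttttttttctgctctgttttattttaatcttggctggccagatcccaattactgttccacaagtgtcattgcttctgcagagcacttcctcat
AGATAA, a motif of GATA factors, was searched on both strands and found in Pf4 at 36 bases after the start, outside the stretch shown, and in 11.2% of all windows.

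Within groups, that is as deviations from the group mean, Ppbp and Pf4 correlated at r = 0.98 over the 16 arrays (exact permutation p = 0.000127 within groups, two-sided, adjusted 0.00279 over 44 relations). Spearman's rho was 0.96 (exact permutation p = 0.000398, adjusted 0.00875). The correlation was 0.92 on slide 1 and 1.0 on slide 2, and 0.97 without the 2 arrays farthest from the median. Both followed the mean of the 14 platelet markers, with r = 0.98 for Ppbp (exact permutation p = 0.000326, adjusted 0.00477, rho = 0.94) and r = 0.98 for Pf4 (exact permutation p = 3.62e-05, adjusted 0.00159, rho = 0.98). Without the 2 farthest arrays these were 0.96 and 0.98. The genes most like Ppbp over the 16 arrays were Gp9, a subunit of the von Willebrand factor receptor (r = 0.98), Alox12, the platelet lipoxygenase (r = 0.98), and Slc6a4, the serotonin transporter (r = 0.97). Those of Pf4 were Rgs18, a regulator of G protein signalling in platelets (r = 0.98), and Gp9 (r = 0.98).

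Of the 28 pairs of members, Ppbp and Pf4 were the only pair with an adjusted p under 0.05. Cxcl5 correlated with Ppbp at r = -0.06 and with Pf4 at r = -0.13 (exact permutation p = 0.843 and 0.67), and with the platelet list at r = -0.17 (exact permutation p = 0.589). Among the rapidly inducible ligands Cxcl1 and Cxcl2 had r = 0.52 (rho = 0.56, exact permutation p = 0.017, adjusted 0.0995).

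**Figure D4:**
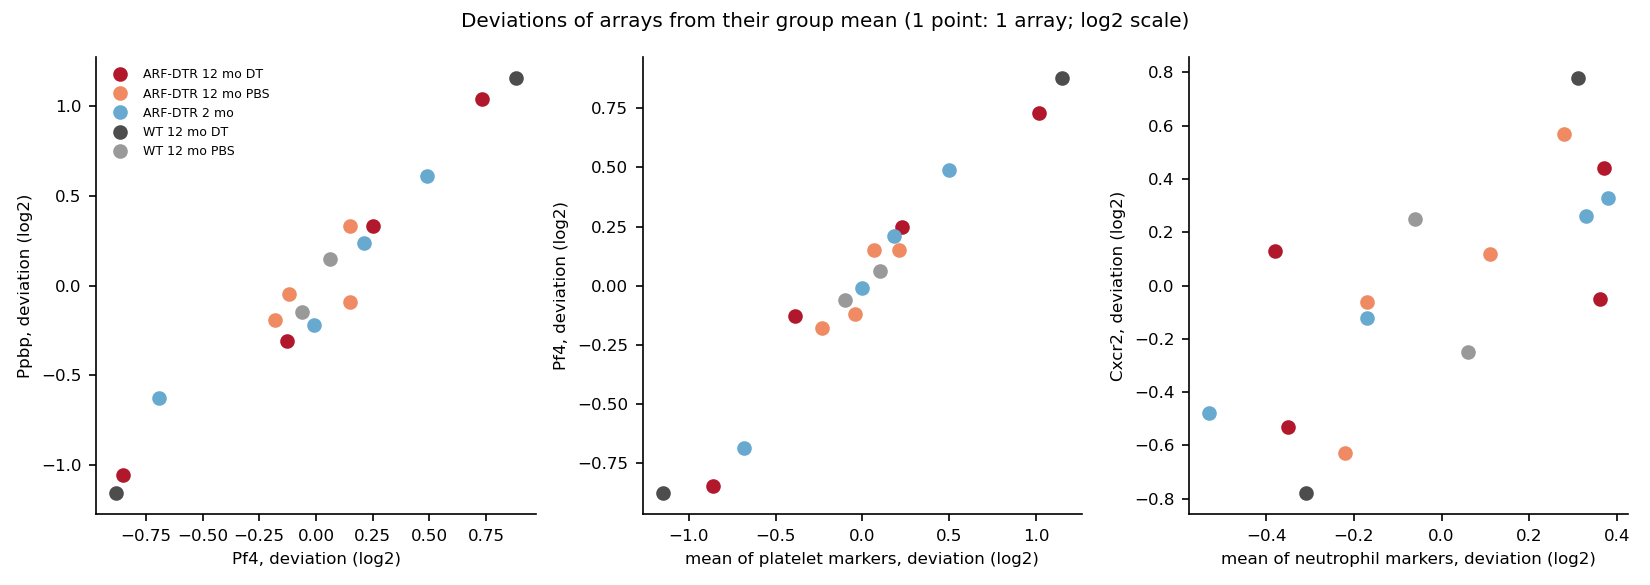
Deviation of each array from its group mean on the log2 scale, with Ppbp against Pf4, Pf4 against the mean of 14 platelet markers, and Cxcr2 against the mean of 16 neutrophil markers (1 point per array, coloured by group). The first 2 panels form a line with r = 0.98, and the neutrophil panel is looser with r = 0.74.

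Cxcr2, the receptor, did not follow Cxcl5 with age. It was at -1.36, -0.73, -1.17 and -1.93 in PBS-treated 12-month ARF-DTR lungs, against -1.35, -1.42, -2.16 and -1.80 in 2-month lungs. These ranges overlapped and the difference was 0.39 ± 0.34 (95% interval -0.35 to 1.13, limma adjusted p = 0.582). Of 16 neutrophil markers 1 was called higher with age, Il1r2 (0.86 ± 0.23), and the list median was 0.07. Ly6g, which marks mature neutrophils in mice, differed by -0.01 ± 0.16, S100a8 by 0.44 ± 0.43 and S100a9 by 0.37 ± 0.40. The summed signal of the list was 222 to 313 in PBS-treated 12-month ARF-DTR lungs, against 215 to 285 in 2-month lungs. Within slide 1 Cxcl5 and Cxcr2 deviated in opposite directions (r = -0.87) and on slide 2 they did not (r = 0.08), with r = -0.34 over all arrays (exact permutation p = 0.299, rho = -0.33, p = 0.33).

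Cxcr2 was highest in PBS-treated wild type lungs. In wild type lungs it was at -2.10 and -0.54 with DT, against -0.37 and 0.14 with PBS, so the groups did not overlap. The difference was -1.20 ± 0.48 (95% interval -2.25 to -0.16) and did not pass the test (limma adjusted p = 0.314). In that comparison 0 of 8 members were called, where 0.179% of all genes were called. The members without overlap were Cxcl5 and Cxcr2, while 43.6% of all genes did not overlap. Neutrophil markers had a median of -0.76 there with 0 of 16 called and 5 at an unadjusted p under 0.05, and their summed signal was 174 and 373 with DT, against 421 and 462 with PBS. Their part in the Cxcr2 values was not tested.

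In ARF-DTR lungs Cxcr2 was at -1.55, -0.58, -0.89 and -1.07 with DT and differed from PBS by 0.28 ± 0.34 (limma adjusted p = 0.57). The ARF-DTR response, which spans the slides, minus the wild type response was 1.48 ± 0.59 (limma adjusted p = 0.177). None of the 8 members was called in that difference of responses, where 2.11% of all genes were called. PBS-treated ARF-DTR lungs were below PBS-treated wild type lungs by 1.18 on the log2 scale (-1.18 ± 0.42, limma adjusted p = 0.0571), on different slides. This passed the threshold with normexp correction (-1.07, adjusted p = 0.0219), with scaling to the array median (-1.27, adjusted p = 0.0402), with the filter of a signal well above background on all arrays (-1.18, adjusted p = 0.0456) and without PBS-treated ARF-DTR replicate 2 (-1.37, adjusted p = 0.0415). Of the 8 members 0 were called in that comparison, where 23.6% of all genes were called, and 4 did not overlap, as did 48.6% of all genes.

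Within slide 2 no member was called between DT-treated ARF-DTR lungs and either wild type group. Over all genes 0.923% were called against DT-treated wild type lungs and 5.56% against PBS-treated wild type lungs. Cxcr2 differed from PBS-treated wild type lungs by -0.90 ± 0.42 (limma adjusted p = 0.225), and Pf4 by -0.96 ± 0.47 (limma adjusted p = 0.247), both without overlap, which 33.9% of all genes showed. Cxcl3 had no overlap with DT-treated wild type lungs, as had 24.4% of all genes, but it was well above background on no wild type array and no fold is given.

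Cxcr2 followed the neutrophil markers within groups at r = 0.74 (rho = 0.71, exact permutation p = 0.00597, adjusted 0.0656), with 0.88 on slide 1, 0.64 on slide 2 and 0.71 without the 2 farthest arrays. With the platelet markers it gave r = 0.79 (rho = 0.73, exact permutation p = 0.00951, adjusted 0.0837) and with Pf4 r = 0.76 (rho = 0.63, exact permutation p = 0.0157, adjusted 0.0995). None of these relations passed 0.05 after adjustment. The genes most like it over the 16 arrays were Tnfsf14, a cytokine of the TNF family (r = 0.94, rho = 0.92), S100a9, a subunit of neutrophil calprotectin (r = 0.92, rho = 0.95), and A530064D06Rik (r = 0.92).

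Genes that act before and after the chemokines were described with age by lists. The 13 measured inducers of CXCR2 ligands and genes of the IL-17 axis had a median difference of 0.10, against -0.03 over all genes. Il17a, Il17f, Il17c, Il23a and Csf3 did not pass the filter. Il1b, an inducer of these ligands, differed by 0.74 ± 0.30 (limma adjusted p = 0.186) and Tnf by 0.21 ± 0.25 (limma adjusted p = 0.705). Of 14 genes of CXCR2 signalling Ptk2b was higher (0.34 ± 0.08) and Rgs2, which damps G protein signals, was lower (-0.53 ± 0.09). Of 12 genes of neutrophil adhesion and passage through endothelium Cd177 (1.57 ± 0.20) and Itgal (0.40 ± 0.10) were higher and Pecam1 was lower (-0.27 ± 0.06).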

How the data were processed

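Per the labels, Cy3-labelled lung RNA was measured on 16 Agilent 1-colour arrays. The deposited array files hold intensity values from Agilent Feature Extraction 10.10.1.1 (version from the submitters' processing notes) on an mm9 design, per the file headers. The main values were log2 processed signals from which the 75th percentile of the same array was subtracted. The deposited series table of the authors holds log2 values, which differed from these by a median of 0.007. What else the authors did is not given in the sources used here.

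Probes well above background on at least 4 arrays were kept, with the brightest kept probe of each gene. Differences were fitted with limma 3.58.1 (lmFit, eBayes; R 4.3.3) on 5 group means over 16 arrays and 25670 genes, with Benjamini-Hochberg adjustment and a threshold of 0.05. The fit was tested on simulated data for the comparison of age only, with independent noise and no slide difference. The number of arrays limits the precision. Relations between genes used deviations from group means and all 55296 permutations within groups. The members and lists were chosen with earlier results of these data known. Named genes are the members, the 3 most correlated genes of each (array names that are positions are left out), up to 4 called genes per list with the largest change, and a set of markers named whatever their values. Promoters came from a RefSeq table on GRCm38.p6, in which 7 of 8 members matched, all but Cxcl5. Replicate numbers did not pair arrays: same-numbered arrays of different groups correlated at a median of 0.06 (from -0.20 to 0.33 over 26 pairs), and differently numbered arrays at -0.01. Some single genes of the context lists are not reported here.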

Additional observations from a re-analysis of the deposited data

How the results depend on the processing

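Alternatives were normexp background correction, quantile normalization, scaling to the array median, no filter, a filter of well above background on all arrays (which drops Cxcl2 and Cxcl3), the median over a gene's probes, the authors' table, a replicate block, only the arrays of the groups or slide compared, and leaving out each array. With age, 1 member was called under each of them, and Cxcl5 ranged from 3.18 to 4.59 over the settings and from 4.13 to 4.90 without single arrays. The replicate block left the number of called members as it was in each comparison (1 with age, 1 for DT in ARF-DTR lungs), and Cxcl5 with age was 4.58 (limma adjusted p = 0.00319).

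Counts of called members moved as follows, with the number called among all 25670 genes tested in brackets. For DT in ARF-DTR lungs there were 1 in the main fit (7507), 3 with normexp (9697) and 0 with quantile normalization (6323). Without single arrays there were 0 to 1 (5385 to 7771). For the genotype difference in the DT response there were 0 in the main fit (541) and 1 with normexp (2023). The 1 was Cxcl3, which was well above background on no wild type array. For DT-treated against 2-month ARF-DTR lungs there were 3 in the main fit (7877) and 5 with normexp (9769). Without single arrays there were 1 to 4 (6045 to 8364). For PBS-treated ARF-DTR against PBS-treated wild type lungs there were 0 in the main fit (6059) and 3 with normexp (7930). There was 1 with scaling to the median (6284) and 1 with the filter on all arrays (5929, of 21661 genes). There were 2 with only the groups compared (4413), and 1 without PBS-treated ARF-DTR replicate 2 (4952). The cause was not tested.

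A sign change counted as a reversal where the value was called in either fit or moved by more than its standard error. Cxcl3 in PBS-treated ARF-DTR against PBS-treated wild type lungs, on different slides, turned to -0.35 with normexp (limma adjusted p = 0.0378). It was well above background on no wild type array and on 2 of 4 PBS-treated ARF-DTR arrays, so that value is a description. Without single arrays, reversals fell in comparisons with wild type lungs. For DT in wild type lungs Cxcl2 ranged from -0.40 to 1.31, Cxcl15 from -0.42 to 0.16 and Ppbp from -2.30 to 0.01. For the genotype difference Cxcl2 ranged from -0.82 to 0.89 and Pf4 from -0.09 to 1.68. For DT-treated ARF-DTR against DT-treated wild type lungs Cxcl2 ranged from -0.59 to 0.42, Ppbp from -1.0 to 1.31, Pf4 from -0.96 to 0.81 and Cxcr2 from -0.48 to 1.08. Cxcl2 ranged from -0.48 to 1.23 for DT-treated ARF-DTR and from -0.97 to 0.73 for PBS-treated ARF-DTR against PBS-treated wild type lungs. Other sign changes among uncalled values numbered 5 over the settings and 47 without single arrays. Where a wild type group is left with 1 array, that array is assumed to vary like the other groups.

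Over all genes, scaling to the array median shifted the median difference to -0.12 with age and 0.18 for DT in ARF-DTR lungs, and put 26.6% and 83.2% of calls in the higher direction, against 44.4% and 54.0% with the 75th percentile. Normexp put 74.0% of the calls for DT in ARF-DTR lungs in the higher direction. Cxcl2 and Cxcl3 lie near the background and are limited by it.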

Other observations

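Among the other CXC chemokines and receptors, 2 ligands and 3 receptors passed the test with age. Of 8 other CXC ligands Cxcl13, which draws B cells into follicles, averaged 1.29 ± 0.82 in PBS-treated 12-month ARF-DTR lungs, against -1.02 ± 0.24 in 2-month lungs (SD, n = 4 each), and Cxcl14 was lower (-0.70 ± 0.17, limma adjusted p = 0.0265). Of 9 other CXC and atypical receptors Cxcr3 (1.28 ± 0.19), Cxcr6 (1.13 ± 0.13) and Cxcr5 (0.65 ± 0.15) were higher, all of them receptors of lymphocytes. Cxcr1, which also marks neutrophils, averaged -1.65 ± 1.36 in PBS-treated 12-month ARF-DTR lungs, against -2.95 ± 0.39 in 2-month lungs (SD, n = 4 each), and did not pass the test (limma adjusted p = 0.361). Ackr1, which binds and carries CXC chemokines across venules, differed by 0.72 ± 0.33 (limma adjusted p = 0.24).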
